A study of Neurospora crassa with 54 samples.

Results

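The genes described here are 26 genes of the filamentous fungus Neurospora crassa, of 10398 in the annotation. Their transcripts were at least 3-fold lower in every library that lacks the gene for the histone variant H2A.Z than in any library that keeps it. They were selected on these values. A gene was taken when its midpoint lies over 200 kb from both ends of its chromosome, when its mean over the 6 libraries that keep hH2Az was at least 1 CPM (counts scaled to a library total of 1000000), and when its highest CPM in the 6 libraries that lack hH2Az was at most 1/3 of its lowest CPM in the 6 that keep it. Of the 7188 genes that met the first 2 conditions, the 26 are 0.362%. The fall without hH2Az is therefore how the genes were chosen and carries no test below. Tests are given for contrasts of set-7 and of the label tag, which the choice did not compare but does limit. A gene with a loss of under 3-fold at either state of set-7 could not be chosen. The gap also had to hold across strains and tags, since all 6 libraries were pooled on each side.

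The RNA libraries came from mycelium of 4 strains with 3 libraries each: dhH2Az_dset7 carries deletions of hH2Az and set-7, dhH2Az and dset7 carry 1 of the deletions each, and WT is the wild type. Growth was in VMM medium with 2% glucose, at 30 °C, under constant light, for 12 h, and the labels name no other allele or agent. The labels carry 1 strain code per genotype and do not say whether the 3 libraries are separate cultures, so p-values measure the spread between these libraries, and a deletion cannot be told apart from other differences of that isolate. The study, by its title, asked about H2A.Z and methylation of lysine 27 of histone H3. Its chromatin samples were not analysed here.

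H2A.Z is a variant of histone H2A that remodelling complexes of the SWR1 type place into nucleosomes, often beside the start of a gene, and in fungi, animals and plants it has been tied both to genes that are switched on and to genes that are kept silent. SET-7 is the methyltransferase that puts methyl groups on lysine 27 of histone H3 in Neurospora, a mark of silent genes that is frequent towards the chromosome ends.

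Total counts were 13581416 to 19720473 per library. Reads on hH2Az itself were 17.7 to 41.3 CPM in the 6 libraries that lack it and 57.3 to 92.1 CPM in the 6 that keep it, and reads on set-7 were 2.90 to 5.53 CPM where it is deleted and 7.29 to 13.5 CPM where it is present. The groups did not overlap for either gene, but reads remained on both, up to 0.72 of the lowest library that keeps the gene for hH2Az and 0.759 for set-7. The sources used here do not state which part of either gene was deleted, so these counts alone do not check the deletions. Replicate 3 stood apart in every strain: across genes its log2 CPM correlated with replicates 1 and 2 at 0.932 to 0.975, and replicates 1 and 2 correlated at 0.988 to 0.993. In the labels replicates 1 and 2 of each strain carry the tag 920 and replicate 3 a higher number, with no meaning stated; libraries are called 920 or later-numbered by this tag below. In bulk RNA, fewer cells that express a gene and less RNA per cell cannot be told apart. Summed CPM of 6 conidial markers, genes of the asexual spores and the hyphae that bear them (con-6, con-8, con-10, con-13, eas and fl), was 163.1 to 1073 CPM without hH2Az (median 658.8) and 52.65 to 220.3 CPM with it (median 97.64). Without hH2Az most of this sum was con-8, and the markers did not move together: eas, a hydrophobin of the conidial coat, had 1.38 to 22.2 CPM in dhH2Az_dset7 and 0.304 to 0.727 CPM in dhH2Az, against 7.05 to 132 CPM in dset7 and 19.5 to 55.9 CPM in WT, and fl had 8.23 to 16.4 CPM and 7.84 to 14.9 CPM, against 8.53 to 29 CPM and 14 to 35.1 CPM in the same strains. No marker was at 0 in any library. The part of these shifts in the results below was not tested.

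The 26 genes together made up 178.4 to 311.6 CPM in the 6 libraries without hH2Az (median 234.5) and 1605 to 2016 CPM in the 6 libraries with it (median 1826). The level left in dhH2Az_dset7 was a median of 11.3% of that in dset7 (range 1.96% to 21.8%), and the level left in dhH2Az was a median of 12.2% of that in WT (range 0.378% to 23.0%). In 8 genes less than 10% was left in both comparisons. Every gene had reads in all 12 libraries, down to 2 reads for NCU01861 in its lowest library, and all 26 passed the filter on low counts. The median log2 fold change, from edgeR's fit with TMM scaling, was -3.36 in dhH2Az_dset7 against dset7 (range -5.92 to -2.44) and -3.26 in dhH2Az against WT (range -8.31 to -2.35), where the medians of all 8372 genes tested were 0.03 and 0.01. These are descriptions of the chosen genes.

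**Figure D1:**
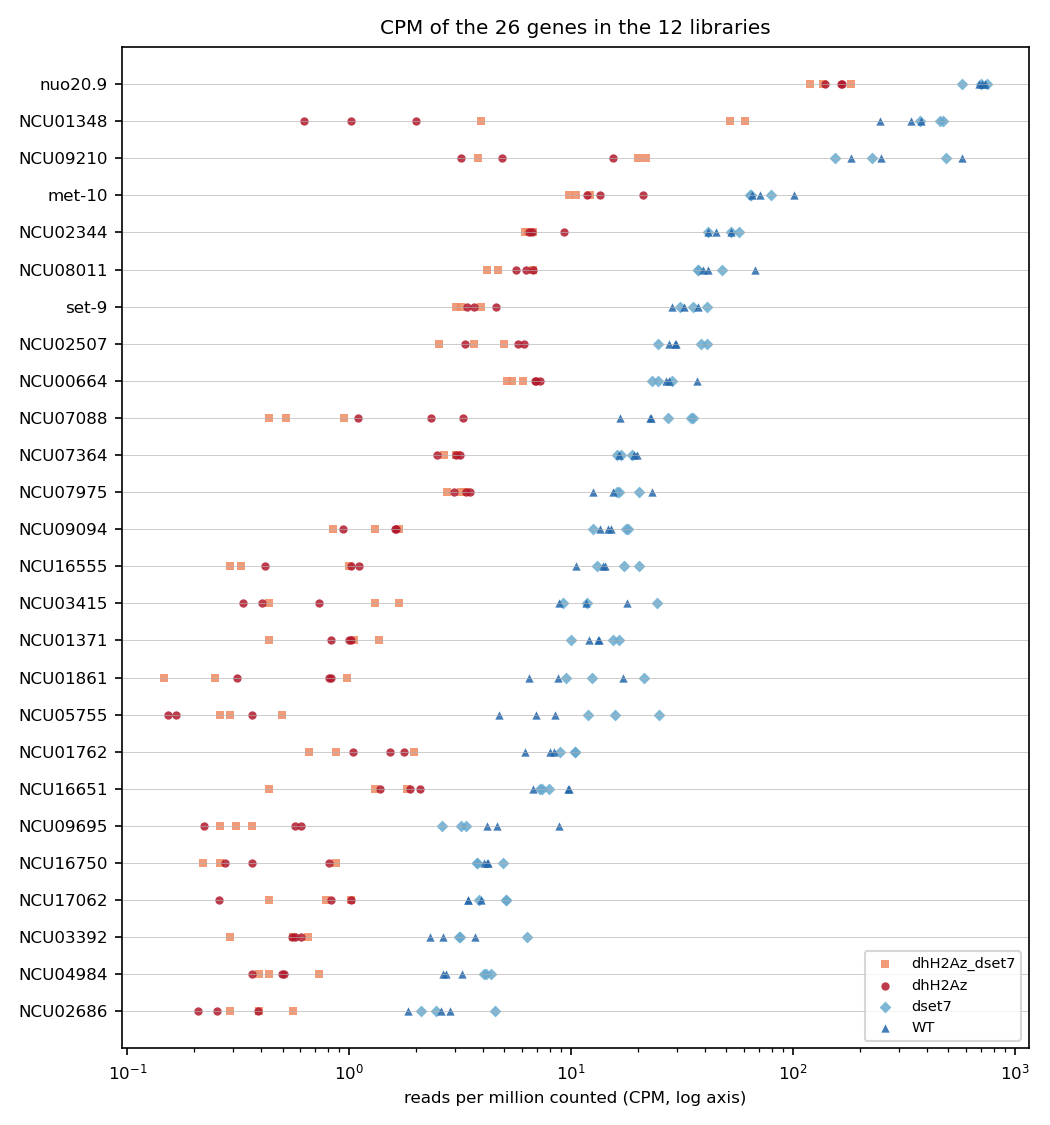
CPM (log axis) of each of the 26 genes in the 12 libraries, 1 point per library, coloured by strain and sorted by the mean CPM of the 6 libraries that keep hH2Az. For every gene the 6 points of dhH2Az_dset7 and dhH2Az lie left of the 6 points of dset7 and WT, as the selection requires; NCU01348 has the widest spread without hH2Az, 0.623 to 60.7 CPM.

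Such genes were rare against a broad background. All 6 libraries without hH2Az lay below all 6 with it for 612 of the 7188 internal genes (8.51%), and above all 6 for 1272 (17.7%). The mirror image of the selection, at least a 3-fold gap in the other direction, was met by 109 internal genes. The 0.362% of internal genes that met the ratio compares with 2 of 550 genes within 200 kb of an end (0.364%). Of all genes tested with edgeR's quasi-likelihood test at an adjusted p under 0.05, 15% were lower and 14.7% higher in dhH2Az_dset7 against dset7, and 14.9% were lower and 16.2% higher in dhH2Az against WT. That balance depends on the scaling. TMM gave 1259 lower and 1227 higher in dhH2Az_dset7 against dset7, and plain column sums gave 839 and 1568; in dhH2Az against WT the counts were 1247 and 1357 by TMM and 765 and 1789 by column sums. Column sums raised the median of all genes to 0.25 in dhH2Az_dset7 against dset7 and 0.24 in dhH2Az against WT, and the medians of the 26 genes were then -3.12 and -3.02.

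Of the 26 genes, 3 have a symbol in the RefSeq table of the same assembly, and the other 23 carry locus identifiers alone, so that no function is given for them here. The first named gene, nuo20.9 (NCU01859, chromosome I from 2233083 to 2235079, minus strand), encodes a subunit of mitochondrial complex I, the NADH dehydrogenase of the respiratory chain. It had 181.5, 136.6 and 119.2 CPM in replicates 1, 2 and 3 of dhH2Az_dset7 and 164.4, 165.6 and 138.5 CPM in dhH2Az, against 700.6, 749.8 and 576.9 CPM in dset7 and 684.8, 733.4 and 707.9 CPM in WT. The libraries fell into a low group and a high group with little spread in either, and 21.6% of the dset7 level was left in dhH2Az_dset7 and 22.04% of the WT level in dhH2Az. It was the most abundant of the 26, also per length, with 420.6 CPM per kb of exon where hH2Az is kept, above 97.5% of the eligible genes.

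The second, met-10 (NCU09311, chromosome I from 4289897 to 4292334, plus strand), is named for mutants that need methionine. It had 9.77, 10.5 and 12.2 CPM in dhH2Az_dset7 and 13.4, 11.7 and 21.0 CPM in dhH2Az, against 64.0, 64.3 and 79.75 CPM in dset7 and 70.5, 65.4 and 101.1 CPM in WT. Replicate 3 was its highest library in each of the 4 strains. It stood closest to the selection threshold, with a ratio of 0.328 between its highest value without hH2Az and its lowest with it.

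The third, set-9 (NCU08733, chromosome II from 3824792 to 3826621, plus strand), carries the name of the SET domain family, which includes the histone lysine methyltransferases. It had 3.19, 3.04 and 3.93 CPM in dhH2Az_dset7 and 4.56, 3.645 and 3.37 CPM in dhH2Az, against 40.8, 35.3 and 30.8 CPM in dset7 and 37.3, 32.35 and 28.6 CPM in WT. Each strain's values were tight, and the level left was 9.51% in dhH2Az_dset7 of that in dset7 and 11.8% in dhH2Az of that in WT. In the contrasts of set-7 its log2 fold change was -0.22 (SE 0.265) in dhH2Az_dset7 against dhH2Az and 0.09 (SE 0.247) in dset7 against WT.

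Of the genes without a symbol, NCU01348 (chromosome V from 3730157 to 3732570, minus strand) and NCU09210 (chromosome I from 5849601 to 5852150, plus strand) were the most abundant where hH2Az is kept, at 183.4 and 143.1 CPM per kb of exon. NCU01348 had 60.7, 51.7 and 3.93 CPM in dhH2Az_dset7 and 1.01, 1.99 and 0.623 CPM in dhH2Az, against 371.8, 458.1 and 471.2 CPM in dset7 and 337.8, 375.1 and 245.5 CPM in WT. All 3 dhH2Az_dset7 libraries were above all 3 dhH2Az libraries, replicate 3 by the least, and all 6 were below every library with hH2Az. NCU09210 had 19.9, 21.7 and 3.79 CPM in dhH2Az_dset7 and 3.19, 4.86 and 15.4 CPM in dhH2Az, against 154.3, 227.1 and 489.5 CPM in dset7 and 182.0, 249.1 and 576.3 CPM in WT. Its libraries of dhH2Az_dset7 and dhH2Az overlapped, and replicate 3 was the highest in dhH2Az, dset7 and WT but the lowest in dhH2Az_dset7.

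NCU02344 (chromosome VII from 2842202 to 2844057, minus strand) and NCU08011 (chromosome IV from 3908616 to 3910899, plus strand) came next in CPM among genes with no symbol. NCU02344 had 6.185, 6.75 and 6.405 CPM in dhH2Az_dset7 and 6.44, 9.22 and 6.64 CPM in dhH2Az, against 52.4, 57.15 and 41.5 CPM in dset7 and 41.3, 52.2 and 44.8 CPM in WT. NCU08011 had 4.69, 6.75 and 4.15 CPM in dhH2Az_dset7 and 6.24, 5.63 and 6.75 CPM in dhH2Az, against 37.2, 37.1 and 47.6 CPM in dset7 and 39.02, 41.2 and 66.99 CPM in WT. In both genes the strains with and without set-7 overlapped, on the low side as on the high side. NCU02507 (chromosome I from 2554168 to 2555733, minus strand) averaged 3.72 ± 1.21 CPM in dhH2Az_dset7 and 5.07 ± 1.52 CPM in dhH2Az, against 34.6 ± 8.73 CPM in dset7 and 28.9 ± 1.08 CPM in WT (SD, n = 3 each). NCU00664 (chromosome I from 7640084 to 7643505, minus strand) averaged 5.53 ± 0.482 CPM in dhH2Az_dset7 and 6.99 ± 0.189 CPM in dhH2Az, against 25.4 ± 2.802 CPM in dset7 and 30.3 ± 5.55 CPM in WT (SD, n = 3 each). The annotation places NCU00665 on the opposite strand over 2251 bp of NCU00664. The counting dropped reads that overlap both, so such reads are missing from NCU00664. NCU00665 is listed at 0 in all 12 libraries, and whether it was silent or lost its reads in this way was not tested.

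The widest gaps between the groups were not in the most abundant genes, although NCU09210, described above, had a gap of 7.12 times. NCU05755 (chromosome VII from 3720774 to 3721718, minus strand) had 0.260, 0.496 and 0.291 CPM in dhH2Az_dset7 and 0.152, 0.166 and 0.363 CPM in dhH2Az, against 15.7, 11.9 and 24.75 CPM in dset7 and 8.47, 6.96 and 4.73 CPM in WT. That is 29 reads in all 6 libraries without hH2Az and 1201 in the 6 with it. NCU16555 (chromosome II from 2398026 to 2399598, minus strand) had 0.326, 0.991 and 0.291 CPM in dhH2Az_dset7 and 1.01, 1.105 and 0.415 CPM in dhH2Az, against 17.3, 20.2 and 13 CPM in dset7 and 10.5, 13.9 and 14.2 CPM in WT. In both genes the lowest value with hH2Az was over 9 times the highest value without it, at 9.54 times in NCU05755 and 9.53 times in NCU16555.

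NCU09094 (chromosome I from 836279 to 837803, minus strand) and NCU01371 (chromosome V from 3804242 to 3806057, plus strand) had gaps of 7.49 and 7.28 times, with 0.846 to 1.67 CPM and 0.437 to 1.37 CPM without hH2Az and 12.5 to 18.0 CPM and 9.95 to 16.3 CPM with it. NCU01861 (chromosome I from 2226728 to 2228146, minus strand) had 0.146 to 0.977 CPM without hH2Az and 6.48 to 21.15 CPM with it, and in dset7 and WT its highest library was replicate 3. NCU03415 (chromosome II from 807643 to 809921, plus strand) had 1.302, 1.67 and 0.437 CPM in dhH2Az_dset7 and 0.406, 0.331 and 0.727 CPM in dhH2Az, against 9.19, 11.8 and 24.3 CPM in dset7 and 8.76, 11.6 and 17.9 CPM in WT. The order of its libraries was like that of NCU09210: replicate 3 was the highest in 3 strains and the lowest in dhH2Az_dset7. NCU07364 (chromosome I from 6210706 to 6212363, plus strand) was the most even of these, with 2.485 to 3.17 CPM without hH2Az and 16.1 to 19.75 CPM with it.

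NCU07088 (chromosome VI from 202271 to 202718, plus strand) was the shortest of the 26, with 350 bases of exon, and the closest to a chromosome end, at 202.5 kb. It had 0.521, 0.434 and 0.946 CPM in dhH2Az_dset7 and 2.33, 3.26 and 1.09 CPM in dhH2Az, against 34.6, 35.2 and 27.4 CPM in dset7 and 22.5, 22.9 and 16.55 CPM in WT. All 3 dhH2Az_dset7 libraries lay below all 3 dhH2Az libraries, and all 3 dset7 libraries lay above all 3 WT libraries. The level left was 1.96% in dhH2Az_dset7 of that in dset7, the lowest in that comparison, and 10.8% in dhH2Az of that in WT.

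The other 9 genes were NCU07975, NCU01762, NCU16651, NCU09695, NCU16750, NCU17062, NCU03392, NCU04984 and NCU02686, whose means ranged from 0.348 to 3.19 CPM without hH2Az and from 2.73 to 17.3 CPM with it. The 5 genes just inside the threshold were met-10, NCU01762 (0.316), nuo20.9 (0.315), NCU00664 (0.311) and NCU16651 (0.308), with the ratio of the highest CPM without hH2Az to the lowest with it in brackets where not given above. Just outside lay NCU01831 and NCU03149 at 0.336, NCU07901 and NCU02352 at 0.349, and NCU08275 at 0.351. The values run on across the threshold with no gap.

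**Figure D2:**
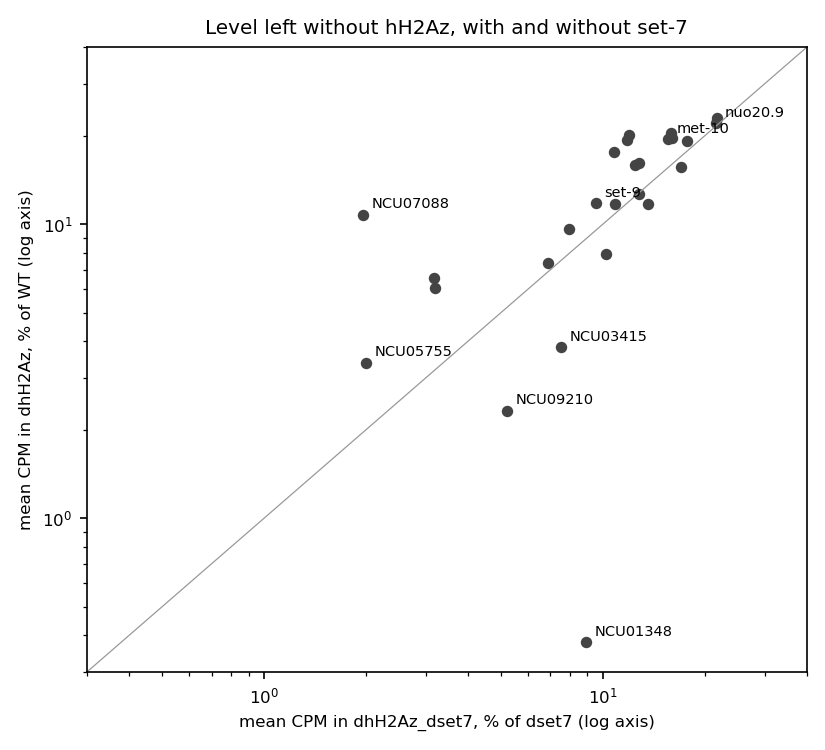
Mean CPM left without hH2Az for each of the 26 genes: in dhH2Az_dset7 as a percentage of dset7 (horizontal, log axis) and in dhH2Az as a percentage of WT (vertical, log axis); the line marks equal values. NCU01348 lies farthest below the line, with 8.94% and 0.378%, and NCU07088 lies farthest above it, with 1.96% and 10.8%.

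Whether set-7 makes a difference to the 26 genes was tested, since the selection did not compare strains with and without set-7. The selection did use the same values, pooled over both states of set-7. A gene raised by loss of set-7 without hH2Az, or lowered by it with hH2Az, was more easily kept out. Low counts among the 26 can thus follow in part from the choice. In the absence of hH2Az, 1 of the 26 passed the test in dhH2Az_dset7 against dhH2Az (edgeR quasi-likelihood, adjusted p under 0.05 over all genes), against 1.45% of all genes tested. This was NCU01348, which rose by 4.95 on the log2 scale (SE 0.817, adjusted p 0.0087 by edgeR) and was higher in 3 of 3 libraries. Without dhH2Az replicate 1 its log2 fold change was 4.85 and its edgeR adjusted p 0.064, and over all alternatives the adjusted p ran from 4.52e-11 to 0.064. In the libraries tagged 920 alone the log2 fold change was 5.16, and the later-numbered libraries, 1 per strain, held 3.93 CPM in dhH2Az_dset7 and 0.623 CPM in dhH2Az. Even so NCU01348 in dhH2Az_dset7 averaged 38.8 ± 30.5 CPM, against 433.7 ± 54.0 CPM in dset7 (SD, n = 3 each).

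In all, 4 of the 26 had an unadjusted p under 0.05 in dhH2Az_dset7 against dhH2Az, against 10.3% of all genes, and DESeq2 called 2, NCU01348 and NCU07088, against 3.49% of all genes. NCU07088 was at -1.84 (SE 0.466) on the log2 scale with an adjusted p of 0.0938 by edgeR, and its adjusted p ran from 4.67e-05 to 0.385 over the alternatives. In the 8 libraries tagged 920 alone 29.5% of all genes passed, and of the 26 these were 5: NCU01348, NCU07088 at -2.60, NCU09210 at 2.30, NCU03415 at 1.91 and NCU02507 at -1.02 on the log2 scale. The last 3 had log2 fold changes of 0.91, 1.17 and -0.48 over all libraries and edgeR adjusted p of 0.787, 0.444 and 0.778. Over the 26 the median log2 fold change was -0.19, with 19 below 0 and 7 above, where the median of all genes was -0.01, and 23 of the 26 lay within 1 log2 unit of 0.

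In the presence of hH2Az, edgeR called 0 of the 26 in dset7 against WT, against 1.03% of all genes tested. An unadjusted p under 0.05 was found for 2, NCU05755 and NCU09695, against 7.56% of all genes, and DESeq2 called NCU05755 alone, against 1.9% of all genes. NCU05755 had 17.5 ± 6.58 CPM in dset7 and 6.72 ± 1.88 CPM in WT (SD, n = 3 each), a difference of 1.27 (SE 0.335) on the log2 scale whose adjusted p by edgeR was 0.157 (0.0269 to 0.485 over the alternatives), and its 3 dset7 libraries lay above its 3 WT libraries. NCU09695 (chromosome V from 810262 to 811239, minus strand) had 3.05 ± 0.380 CPM in dset7 and 5.88 ± 2.55 CPM in WT (SD, n = 3 each), a difference of -0.94 (SE 0.350) on the log2 scale with an adjusted p of 0.464 by edgeR. In the libraries tagged 920 alone, where 10.7% of all genes passed, NCU05755 at 0.83 and NCU07088 at 0.61 on the log2 scale did. The median over the 26 was 0.12, with 17 above 0 and 9 below, where the median of all genes was -0.02.

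**Figure D3:**
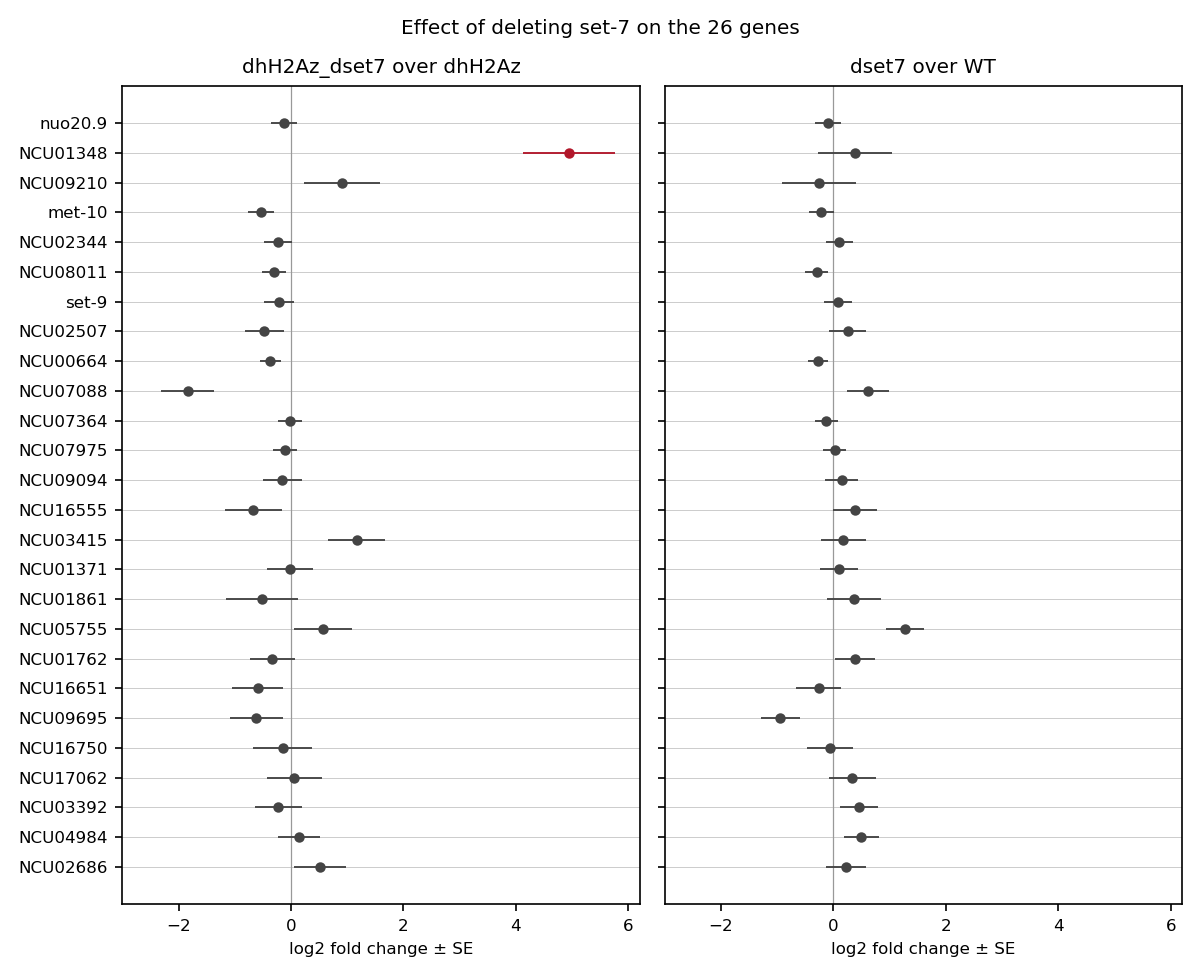
Log2 fold change with standard error, from edgeR's fit over all 12 libraries, for dhH2Az_dset7 over dhH2Az (left) and dset7 over WT (right) in each of the 26 genes; red marks an adjusted p under 0.05. NCU01348 at 4.95 on the left is the 1 gene that passed, and in dset7 over WT the values run from -0.94 to 1.27.

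The interaction asks whether the loss of transcript without hH2Az differs by the presence of set-7. Since every chosen gene had to lose at least 3-fold both with and without set-7, genes whose loss depends on set-7 were largely kept out, and a low count among the 26 follows in part from the choice. Of all genes, 0.179% passed, and of the 26, edgeR called 0, with 2 at an unadjusted p under 0.05 (6.16% of all genes), while DESeq2 called those same 2 genes (0.836% of all genes). They were NCU01348, with an interaction of 4.57 (SE 1.02) on the log2 scale and an edgeR adjusted p of 0.21 (8.04e-07 to 0.581 over the alternatives), and NCU07088, with -2.45 (SE 0.598) and an edgeR adjusted p of 0.261 (4.35e-05 to 0.717). The loss of NCU01348 was thus measured as -3.74 (SE 0.737) in dhH2Az_dset7 against dset7 and -8.31 (SE 0.93) in dhH2Az against WT, and that of NCU07088 as -5.92 (SE 0.49) and -3.48 (SE 0.42). The 920 libraries alone gave 5 called genes, with 25.8% of all genes called. Leaving out dhH2Az_dset7 replicate 3 let NCU01348 pass (5.11, edgeR adjusted p 0.00153), and leaving out dhH2Az replicate 3 let NCU07088 pass (-2.78, edgeR adjusted p 0.0275). The median interaction of the 26 was -0.29, and of all genes 0.01.

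**Figure D4:**
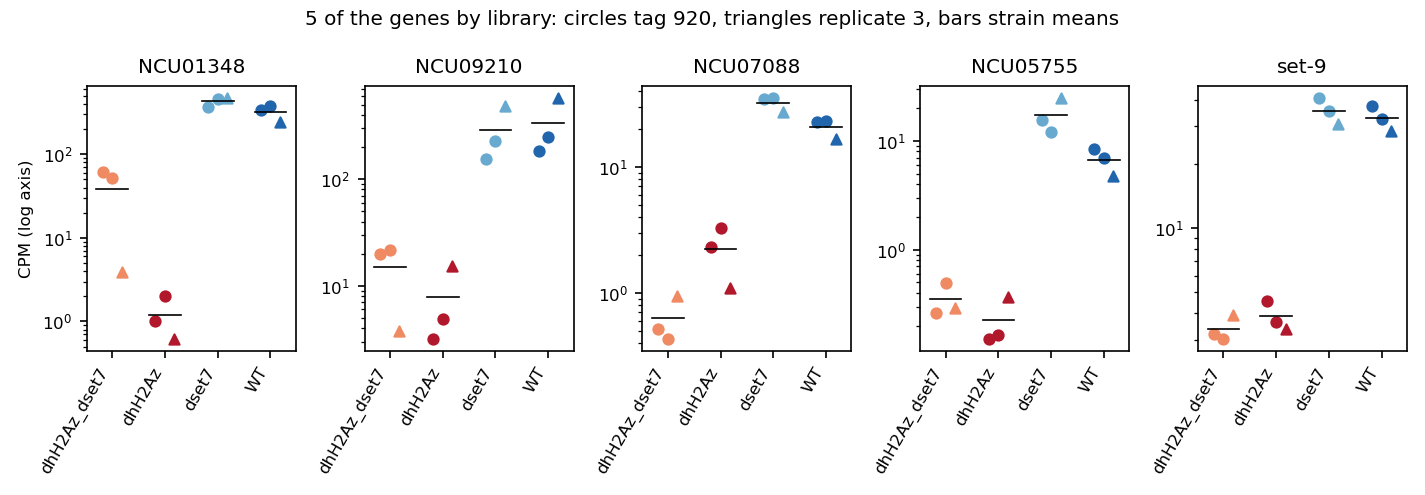
CPM (log axis, own scale per panel) by library in 5 of the genes, with strains from left to right dhH2Az_dset7, dhH2Az, dset7 and WT, circles for libraries tagged 920, triangles for the later-numbered libraries and bars for strain means. NCU01348 and NCU09210 in dhH2Az_dset7 have 2 circles far above their triangle, NCU07088 has its lowest values in dhH2Az_dset7, NCU05755 is higher in dset7 than in WT, and set-9 is even within both levels.

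The tag of the labels was examined in the same way. With strain as a covariate, edgeR called 0 of the 26 in the later-numbered libraries against those tagged 920, against 0.729% of all genes tested; 5 had an unadjusted p under 0.05, against 21.8% of all genes, and DESeq2 called 2, against 9.03%. Without dhH2Az_dset7 replicate 3 edgeR called 5, and 10.5% of all genes. The selection requires a fall within each tag, so its size there is a description: the median level left was 9.77% in the later-numbered libraries and 13.7% in the 920 libraries, and it was lower in the later-numbered libraries for 19 of the 26 genes. Spread differed among the genes. The highest of the 6 libraries was over 3 times the lowest for 11 genes without hH2Az and for 4 genes with it. The share of all eligible genes was not counted. Among the 11, reads without hH2Az were 3 to 8 for NCU05755 and 2 to 16 for NCU01861, but 52 to 350 for NCU09210. The part of low counts in this spread was not tested.

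The 26 genes lay on all 7 chromosomes: 9 on I, 5 on II, 1 on III, 4 on IV, 3 on V, 2 on VI and 2 on VII, which is 0.11% of the eligible genes on chromosome III and up to 0.669% on II. Their median distance to the nearer end was 2057 kb. Each strand holds 13 of them. Their exons summed to a median of 1583 bases, against 2216 bases for all eligible genes, with a median of 3 exons in each. The gap to the gene upstream had a median of 542 bp, against 647 bp for all eligible genes, and the upstream neighbour was on the opposite strand for 50% of the 26, against 57.9%. Overlap with another annotated gene was found for 15.4% of the 26, against 25.6%. These features are descriptions with no test.

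Among the 26, 4 genes overlap another annotated gene, so their counts are uncertain. Beside NCU00664 these are NCU16651, which shares 465 bp with NCU00057 on the opposite strand, NCU02686, which shares 98 bp with NCU02687, and NCU07975, which shares 58 bp with NCU07974. NCU00057 moved the other way from NCU16651: it averaged 117 ± 30.0 CPM in dhH2Az_dset7 and 136 ± 29.6 CPM in dhH2Az, against 43.4 ± 5.69 CPM in dset7 and 58.8 ± 7.14 CPM in WT (SD, n = 3 each), and rose in both comparisons (log2 1.18 and 0.98, edgeR adjusted p 0.00586 and 0.0149). Reads that overlapped both genes were not counted for either.

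Genes next to the 26 were chosen by position, not by their own values, though the comparison was added with results in view. NCU04984 (chromosome IV from 1090106 to 1091407, plus strand) and NCU16750 (chromosome IV from 1091410 to 1092518, plus strand), both among the 26, are neighbours with a gap of 2 bp. NCU04984 had 0.391, 0.434 and 0.728 CPM in dhH2Az_dset7 and 0.507, 0.497 and 0.363 CPM in dhH2Az, against 4.34, 4.04 and 4.13 CPM in dset7 and 2.65, 3.22 and 2.72 CPM in WT. NCU16750 had 0.260, 0.867 and 0.218 CPM in dhH2Az_dset7 and 0.811, 0.276 and 0.363 CPM in dhH2Az, against 3.77, 3.75 and 4.91 CPM in dset7 and 4.05, 4.19 and 4.20 CPM in WT. In NCU04984 all dset7 libraries were above all WT libraries, and in NCU16750 they overlapped. The gene upstream of the pair, NCU04983, on the same strand, also fell: in dhH2Az_dset7 against dset7 its log2 value was -1.82 (adjusted p 0.00175 by edgeR), and in dhH2Az against WT it was -1.36 (adjusted p 0.0079 by edgeR). NCU01861 and nuo20.9 are separated by NCU01860 alone, which did not pass in either comparison (log2 0.70 and 1.00, edgeR adjusted p 0.486 and 0.313).

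In all, 49 genes outside the 26 lie directly next to one of them, and 39 of these had enough reads to be tested. Among them 14 fell and 2 rose in dhH2Az_dset7 against dset7 (35.9% and 5.13%, where 15% and 14.7% of all genes did), and 10 fell and 5 rose in dhH2Az against WT (25.6% and 12.8%, where 14.9% and 16.2% did). Their median log2 fold changes were -0.48 and -0.38, against 0.03 and 0.01 for all genes. By column sums 12 fell and 3 rose, and 7 fell and 5 rose. In both comparisons, which come from 1 fit, 8 neighbours fell and 2 rose. The share of all genes that fell or rose in both was not counted, so these numbers have no background here. Of 12 tested neighbours that lie upstream on the opposite strand, 6 fell and 0 rose in dhH2Az_dset7 against dset7, and 3 fell and 1 rose in dhH2Az against WT. Whether neighbours fell more often than other genes was not tested.

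The largest fall among the 39 tested neighbours was in NCU09209 (chromosome I from 5845361 to 5847904, minus strand), whose start faces away from that of NCU09210 over a gap of 1696 bp. It had 16.4, 19.8 and 7.79 CPM in dhH2Az_dset7 and 11.9, 14.0 and 14.6 CPM in dhH2Az, against 42.7, 76.1 and 325 CPM in dset7 and 75.0, 100 and 492 CPM in WT. As in NCU09210, replicate 3 was by far the highest library in dset7 and WT and the lowest in dhH2Az_dset7. In dhH2Az_dset7 against dset7 it fell (log2 -3.47, SE 0.765, adjusted p 0.00602 by edgeR), as in dhH2Az against WT (log2 -4.19, SE 0.789, adjusted p 0.00226 by edgeR). In the 920 libraries the groups also did not overlap.

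NCU02508 (chromosome I from 2555937 to 2557263, minus strand), 203 bp from NCU02507 and on its strand, had 20.7 to 32.4 CPM in dhH2Az_dset7 and 29.5 to 39.5 CPM in dhH2Az, against 98.8 to 115 CPM in dset7 and 123 to 146 CPM in WT. NCU08012 (chromosome IV from 3911212 to 3914215, plus strand), 312 bp from NCU08011 and on its strand, had 11.0 to 16.5 CPM in dhH2Az_dset7 and 10.6 to 14.4 CPM in dhH2Az, against 40.2 to 60.7 CPM in dset7 and 51.0 to 57.7 CPM in WT. Both fell by about the same in the 2 comparisons, NCU02508 with log2 fold changes of -2.20 and -2.21 and NCU08012 with -2.18 and -2.34. NCU09095, whose start lies 149 bp from that of NCU09094 on the other strand, fell (log2 -1.35 and -1.63), and NCU09093 on the other side of NCU09094 fell (log2 -0.96 and -1.05). NCU16998, upstream of NCU01348 on the opposite strand, fell (log2 -1.35 and -1.29), while NCU01347 on the other side of NCU01348 rose by log2 1.77 and 1.34. The remaining gene that fell in both was rap-1, next to NCU03392 (log2 -1.16 in each). NCU16445, next to NCU00664, rose in dhH2Az against WT (log2 5.75, SE 1.46, edgeR adjusted p 0.0123), with 30.0 CPM in dhH2Az and 0.456 CPM in WT on average. In dhH2Az_dset7 against dset7 it did not pass (log2 1.54, SE 1.33, edgeR adjusted p 0.41), with 2.33 and 0.7 CPM on average.

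**Figure D5:**
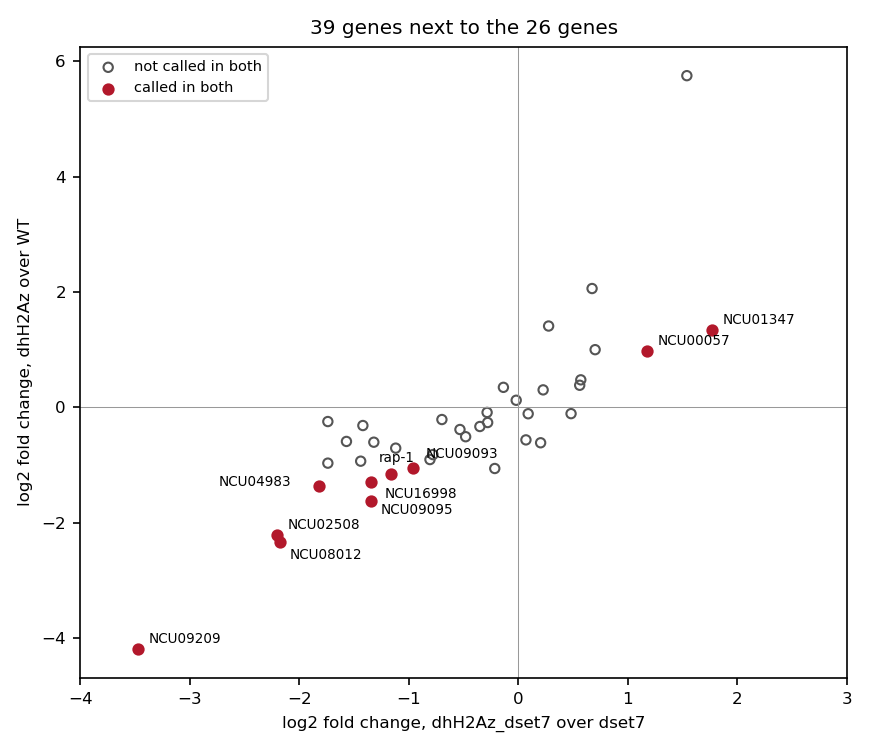
Log2 fold change of the 39 tested genes that lie next to one of the 26, in dhH2Az_dset7 over dset7 (horizontal) and dhH2Az over WT (vertical); filled points passed in both comparisons at an edgeR adjusted p under 0.05. Of the filled points 8 lie at lower left, with NCU09209 lowest at -3.47 and -4.19, and 2 lie at upper right.

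Genes of related pathways that are not among the 26 were read from 4 lists, given as dhH2Az_dset7 against dset7 and then dhH2Az against WT. The shares of all genes called in these comparisons, 15% and 14.9% lower and 14.7% and 16.2% higher, are the background for each list. Of 20 genes for histones and chromatin remodellers, 6 fell and 1 rose in each comparison. The core histone genes hH2A, hH2B, hH3 and hH4-2 and the linker histone gene hH1 fell in both, for hH2B with log2 fold changes of -1.39 and -1.05 (edgeR adjusted p 0.000379 and 0.00157) and for hH1 with -0.84 and -1.02 (edgeR adjusted p 0.0165 and 0.00579). In libraries of hH2A, 534 to 725 CPM in dhH2Az_dset7 and 638 to 771 CPM in dhH2Az stood against 1140 to 1440 CPM in dset7 and 1070 to 1300 CPM in WT, with no overlap. The sixth in each was hH4-1 (log2 -0.92 and -0.47, edgeR adjusted p 0.00187 and 0.05), in dhH2Az against WT right at the threshold. By column sums 5 of the list fell in each comparison, and 2 rose in the first and 1 in the second. The remodeller gene crf5-1 rose by log2 1.83 and 1.39. Its rise in dhH2Az came from replicates 1 and 2, with 67.9 and 51.9 CPM against 14.1 and 11.1 CPM in WT. In replicate 3 it had 18.8 CPM in dhH2Az against 20.5 CPM in WT, so these strains overlapped. Replicate 3 of dhH2Az_dset7 was higher than that of dset7, at 26.3 against 13.2 CPM. The remodeller gene crf1-1 did not pass (log2 0.68 and 0.10, edgeR adjusted p 0.147 and 0.851).

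Of 16 conidiation and clock-controlled genes tested of 17, 2 fell and 1 rose in dhH2Az_dset7 against dset7, both below the background shares. In dhH2Az against WT 6 fell and 1 rose. By column sums 1 fell and 1 rose in the first comparison, and 4 fell and 1 rose in the second. The gene that rose in both was con-8, with 373 to 1060 CPM in dhH2Az_dset7 and 144 to 865 CPM in dhH2Az, against 30.7 to 57.3 CPM in dset7 and 31.4 to 57.9 CPM in WT (log2 3.49 and 3.60, edgeR adjusted p 0.00274 and 0.00217). The genes that fell in both were ccg-1 (log2 -2.31 and -1.01) and ccg-14 (log2 -1.83 and -2.21). In dhH2Az against WT alone, falls of eas (log2 -6.38, SE 1.37, edgeR adjusted p 0.00495), fl (-1.26), csp-2 (-0.69) and ccg-7 (-1.28) also passed. In dhH2Az_dset7 against dset7 these genes were at -2.52, -0.61, -0.42 and -0.89. The interaction, which asks whether the comparisons differ, was called by edgeR for 1 gene of this list with a negative value and 0 with a positive one. The falls of eas, fl, csp-2 and ccg-7 were smaller in dhH2Az_dset7 against dset7, a positive interaction, so they were not called. By DESeq2 size factors and by column sums the interaction was called for 0 genes of this list. Of 10 light and clock genes, 7 rose in dhH2Az_dset7 against dset7 and 5 in dhH2Az against WT, and 0 fell in either, also by DESeq2 size factors and by column sums. Among them were wc-2, a subunit of the white collar photoreceptor complex (log2 1.06 and 0.69), and the carotenoid genes al-1 (1.53 and 1.40) and al-3 (1.50 and 1.03). The genes cry and sub-1 also rose in both, and frq and phr passed in dhH2Az_dset7 against dset7. Some of these rises were small or absent in replicate 3. There cry had 84.6 CPM in dhH2Az against 105 CPM in WT, and al-1 had 118 against 114 CPM. Likewise frq had 164 CPM in dhH2Az_dset7 against 165 CPM in dset7. Replicate 3 of wc-2, al-3 and sub-1 was higher without hH2Az in both comparisons. Of 8 heterochromatin genes tested of 9, 1 fell and 1 rose in each comparison; the one that fell was dim-9 (log2 -0.82 and -0.59), which did not pass by column sums. The one that rose was dim-2 (log2 0.95) in dhH2Az_dset7 against dset7 and dim-7 (log2 0.68) in dhH2Az against WT, and 1 of 8 either way is near the background.

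Over the 4 lists 19 genes passed in dhH2Az_dset7 against dset7 and 21 in dhH2Az against WT. The second count was 11 without dhH2Az replicate 1 and 12 without WT replicate 2, and in the libraries tagged 920 alone, where 57% and 55.2% of all genes passed, the counts were 38 and 34.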

How the data were processed

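Poly(A) RNA of 12 libraries from 4 strains was analysed. Per the file headers the authors ran featureCounts 1.6.2 on exons of the NC12 annotation to get whole-number read counts per gene, with no option set for strand, reads at several places or reads over several genes; the deposited counts were not normalized. By the tool's defaults, reads over 2 genes were dropped and antisense reads counted with the gene. Per the submitters' processing notes, Trim Galore, FastQC, BWA 0.7.15, SAMtools 1.3.1, HOMER 4.8 and deepTools 3.3.1 were used, with no role stated. Per the labels, libraries were stranded mRNA.

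From the counts, CPM was computed as count over column sum. Total counts were 13581416 to 19720473 per library. The 4 genes that the selection leaves out by name are not reported here. Names came from the RefSeq table of NC12, matched for 10397 of 10398 genes by chromosome, start and end; it holds no product names, so genes were not classed by product, and no genome sequence was used. Fold changes and tests came from edgeR 4.0.16 (R 4.3.3): filterByExpr by strain (8372 genes), TMM, 1 fit over 12 libraries, quasi-likelihood F-test with robust dispersion, 2-sided, Benjamini-Hochberg over all genes, threshold 0.05, tested on simulated data. The contrast of replicate 3 with the libraries tagged 920 had strain as a covariate. Standard errors are the log2 fold change over the root of F.

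The 26 genes, the lists and the neighbours were chosen with earlier results of these data known. Genes described singly are those with a symbol, the 10 most abundant, the 10 with the lowest ratio, the 5 on each side of the threshold, those called for set-7, adjacent ones and called list genes; neighbours were added after seeing values. Same-numbered dset7 and WT libraries deviated together (correlations 0.431, 0.167 and 0.245 across genes), so their numbers were taken to pair them. Replicate 3 carries the other tag in both strains, and a shift shared by tag would also give positive values. These correlations therefore cannot tell pairing by number from a split by tag. The main fit left the pairing by number out, and this pairing entered only in the alternative with the replicate as a block. No 2 replicates agreed within sampling noise. Alternatives were DESeq2 1.42.0, its size factors, no filter beyond 1 read, the replicate or tag as a block, the 8 libraries tagged 920, each library left out, other selection limits and, chosen after seeing the data, column-sum scaling.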

Additional observations from a re-analysis of the deposited data

How the results depend on the processing

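The selection gave 43 genes with TMM-scaled libraries, 95 at a ratio of 1/2 and 16 at 1/4. It gave 54 in the libraries tagged 920 and 27 to 34 with 1 library left out. All 26 genes were kept in each of these except at 1/4, where 16 were. With libraries left out or a ratio of 1/2, keeping all 26 was fixed in advance, since the limits could only loosen. Beside 1/4, only the TMM scaling could have lost a gene. Called among the 26 in dset7 against WT were 1 by DESeq2, 2 in the 920 libraries and 0 with any library left out. In dhH2Az_dset7 against dhH2Az these counts were 2, 5 and 0 to 2, and in the interaction 2, 5 and 0 to 1. For the contrast of replicate 3 with the libraries tagged 920 they were 2 by DESeq2 and 0 to 5 with a library left out. Genes called over the lists in dhH2Az_dset7 against dset7 were 38 in the 920 libraries and 13 to 23 with a library left out, and in dhH2Az against WT 34 and 11 to 25. Neighbours that fell in dhH2Az against WT were 16 in the 920 libraries, where 55.2% of all genes passed in either direction. With the replicate block, the counts among the 26 were 1 in dhH2Az_dset7 against dhH2Az and 0 in the other 2 contrasts of set-7, list genes were 22 in dhH2Az_dset7 against dset7 and 23 in dhH2Az against WT, and the medians of the 26 were -3.40 and -3.26; the block changed no call among the 26. Same-numbered dhH2Az and dset7 libraries also deviated together (0.156, 0.147 and 0.266). No comparison here sets this pair against each other, but both strains enter the interaction. Correlations did not all exceed 0.1 for dhH2Az_dset7 and dhH2Az (0.148, -0.220 and -0.104), dhH2Az_dset7 and dset7 (0.014 to 0.091) and dhH2Az and WT (-0.061 to 0.033). For dhH2Az_dset7 and WT, which also both enter the interaction, they were all negative (-0.263, -0.093 and -0.350). The causes of these shifts were not tested. No called result changed direction under these alternatives. With 3 libraries per strain and down to 2 reads in a library, small differences in the rarest of the 26 genes were not detectable.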
